A study of Mus musculus with 8 samples.

Results

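Thalamic tissue of mice that received the neurotoxin MPTP and were needled at the hips was set against that of mice that received saline. The arrays were chosen by their titles and are 4 of the 8 in the series, 2 of MPTP mice needled at non-acupoints and 2 of control mice. All 23410 probe sets with a gene symbol, of 35557 in the table, belong to the comparison, and the 15791 of them above a brightness limit, which stand for 13524 genes measured by a probe set of their own, were tested.

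All mice were adult male C57BL/6, an inbred laboratory strain, and were 6 weeks old when taken into the study. The hip-needled mice were injected into the abdomen with MPTP-HCl, 20 mg/kg as free base in 100 µl saline, every 24 hr for 4 weeks, the schedule that the labels give for MPTP. Their needles went 3 mm deep on each side of the hips and were spun by hand at 2 turns per sec for 15 sec, first 2 hr after the first injection and then every 48 hr, in 14 sessions. Control mice were injected daily with 100 µl saline for the same 4 weeks, and the labels describe no needling of them. The hip-needled mice thus differ from the controls in MPTP, in needling and in the handling that goes with it, and these cannot be told apart in this comparison. The series also holds 2 mice that received MPTP alone and 2 that received MPTP and were needled at the leg and foot points GB34 and LR3 (acupoint mice). The labels count 9 mice each in the MPTP and control groups and no number in the others, and 300 ng of total RNA from each of 2 mice per group was hybridised to an Affymetrix whole-transcript array. The deposited values are log2 levels after RMA, so that a difference of 1 is a 2-fold difference, and levels of different genes are not compared here.

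MPTP is converted in glia, mainly by monoamine oxidase B (Maob), to a toxic ion that the dopamine transporter carries into dopaminergic neurons. These neurons have their cell bodies in the ventral midbrain, below and behind the thalamus. The thalamus itself is built mostly of excitatory relay neurons that express the transcription factor gene Tcf7l2, and it borders the choroid plexus and ependyma of the third ventricle, the meninges, the habenula and the hypothalamus. A dissected block can hold some tissue of each, and the labels do not say how its borders were set. The defining markers of the labelled tissue were well measured on the 4 arrays, with Tcf7l2 between 9.39 and 10.53 and the kinase gene Prkcd between 10.74 and 11.74, where the array medians over all probe sets lie between 6.18 and 6.28.

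Hip-needled mouse 1 stood apart from the other 3 arrays. Its levels correlated with those of hip-needled mouse 2 at 0.936 over the probe sets tested, while the 2 control arrays correlated at 0.995, and the array most like it was MPTP mouse 1 (0.982). The hip-needled mice differed from each other by over 1 log2 unit in 1057 probe sets (6.69%), and the control mice in 1 (0.00633%). Mouse 1 lay over 1 unit above the control mean in 496 probe sets (3.14%) and below it in 695 (4.4%), mouse 2 in 19 (0.12%) and 16 (0.101%). The first principal component, 71.8% of the variance over the 8 arrays, placed hip-needled mouse 1 at 47.70 and MPTP mouse 1 at 55.88, and the other 6 arrays between -21.67 and -11.31. Levels of named genes are therefore given for both hip-needled mice, and the leading results again without the 2 arrays that stood apart (6 arrays). There mouse 2 alone stands for the hip-needled group and is assumed to vary like the arrays of the other groups. With the 6 arrays the spread rests on the control and acupoint pairs, and the difference between the hip-needled mice does not enter it. Genes said to pass there are held to that spread, not to the spread between the hip-needled mice.

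By limma over all 8 arrays, 0 of 15791 probe sets (0%) passed a Benjamini-Hochberg adjusted p of 0.05 between hip-needled and control mice, and the smallest adjusted p was 0.318. At an unadjusted p under 0.05 there were 770 probe sets (4.88%), 423 higher (2.68%) and 347 lower (2.2%) in hip-needled mice, where a threshold of 0.05 gives 790 by chance. This split rests on the scaling of the arrays: with every array centred on its median it was 558 higher and 244 lower. Both hip-needled arrays lay above both control arrays in 4024 probe sets (25.5%) and below them in 3516 (22.3%), together 47.7%. In 8 probe sets (0.0507%) every hip-needled array was over 1 unit above every control array, and in 10 (0.0633%) over 1 unit below. With the 6 arrays, 33 probe sets passed the adjusted p as higher (0.209%) and 19 as lower (0.12%), which stand for 20 and 19 genes with a probe set of their own, and 4 of the 52 carry several symbols. At an unadjusted p these 6 arrays gave 1846 higher (11.7%) and 1485 lower (9.4%). In 49 of the 52, both hip-needled mice lay on the same side of both control mice, so for those the array left out did not point the other way.

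**Figure D1:**
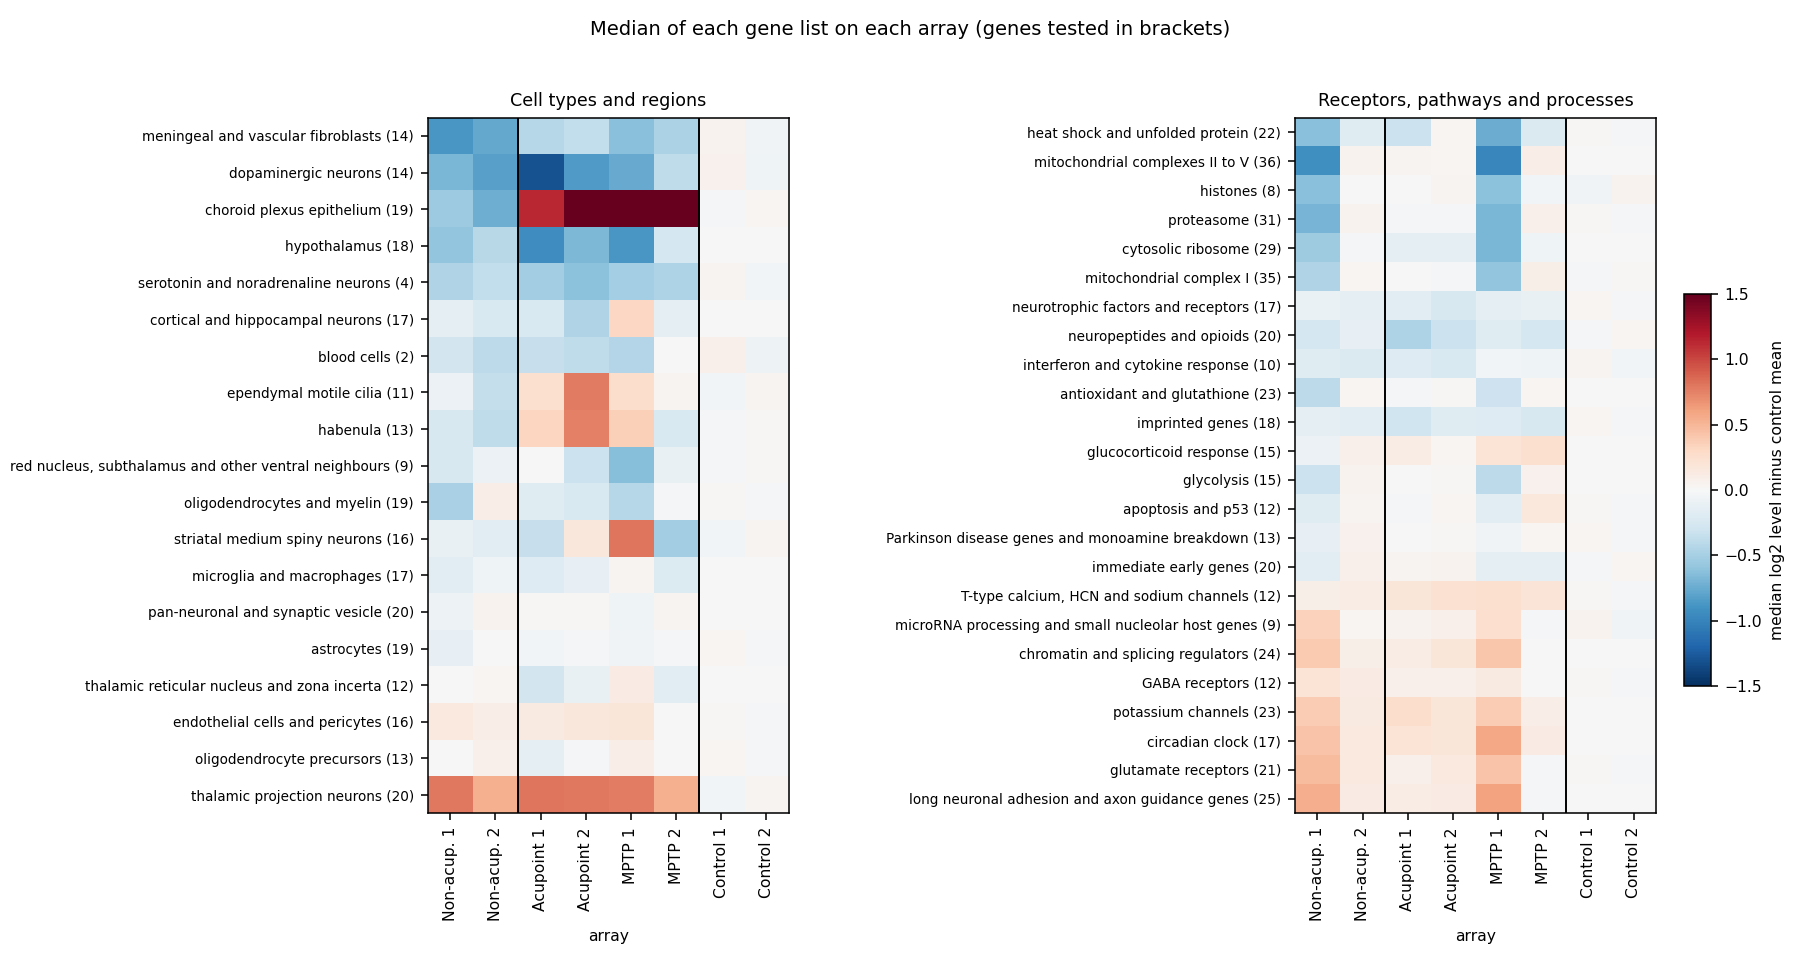
Median log2 level of each gene list minus the mean of the 2 control arrays, on each of the 8 arrays (columns, from the hip-needled group, marked Non-acup., at the left to controls at the right), with cell type and region lists at the left and process lists at the right. Colours stop at 1.5 in either direction, which the choroid plexus values of 3 arrays exceed. Thalamic neuron, meningeal, dopaminergic and hypothalamic lists have like colours in both hip-needled mice, while those of mitochondrial complexes and proteasome are coloured in mouse 1 and in MPTP mouse 1.

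Choroid plexus genes, from the secretory tissue that makes cerebrospinal fluid, were lower in hip-needled mice. All 19 tested members of the 22 on the list were below the control mean, 18 did not overlap with the control arrays (3057 of all 13524 genes, or 22.6%, did so as lower), and 10 had an unadjusted p under 0.05 (2.44% of all genes as lower). The list's median difference was -0.50 on the log2 scale, -0.55 in mouse 1 and -0.73 in mouse 2, against -0.02 over all genes tested. Members of this list and of those below were chosen with earlier results of these data known. The shares of all genes set beside their counts are thus a description and no test. On 9 of the 19 the hip-needled mean lay under 5.63, the mean that the brightness filter asks for, at the dim end of the array, as did the control mean on 2. The filter's mean over 8 arrays includes the acupoint and MPTP mice. In bulk tissue, fewer cells of a type and less RNA per cell cannot be told apart.

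Kcnj13 encodes a potassium channel that sits in the ventricular face of these cells. It stood at 4.91 and 5.30 in hip-needled mice, against 7.50 and 7.56 in controls, a difference of -2.42 ± 0.35 (SE; adjusted p = 0.437, limma over all 8 arrays). Both hip-needled mice were at least 2.20 units below both controls, and with the 6 arrays the difference was -2.23 ± 0.24 (SE, adjusted p = 0.0398, limma). Its gene lies on mouse chromosome 1, on the minus strand, and the 250 bases before its start, chr1:87394730-87394979 in RefSeq's GRCm38.p6 table, are shown because Kcnj13 has the smallest adjusted p on the list:
Kcnj13: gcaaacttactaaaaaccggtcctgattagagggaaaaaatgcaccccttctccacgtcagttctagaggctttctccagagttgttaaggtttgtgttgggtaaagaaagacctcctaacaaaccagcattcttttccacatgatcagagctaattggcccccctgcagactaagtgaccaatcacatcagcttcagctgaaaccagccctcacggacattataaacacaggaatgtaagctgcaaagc
A search of these bases on both strands for TAATCC, which factors of the Otx and Pitx families bind, AAGGTCA, a half-site of orphan nuclear receptors such as Nr4a2 and Rora, CTTTGA, a core of TCF and LEF sites, and TGACGTCA, the cyclic AMP response element, found none of the 4. Over the same window of all 32851 promoters in the table the 4 motifs occur in 6.25%, 4.08%, 13.8% and 1.55%.

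Transthyretin (Ttr), the thyroid hormone carrier that choroid plexus secretes, was at 5.72 and 8.39 in hip-needled mice, against 12.05 and 12.27 in controls. Both mice were far below the controls and mouse 1 was much the lower, and their difference was -5.10 ± 0.78 (SE; adjusted p = 0.484 by limma). With the 6 arrays it was -3.77 ± 0.13 (SE, adjusted p = 0.00169, limma). Lbp, whose product binds bacterial lipopolysaccharide, was nearly level between the hip-needled mice, at 6.16 and 6.11, against 7.18 and 7.24 in controls. The folate receptor gene Folr1 was at 5.91 and 5.92, against 6.61 and 6.77, and the sulfate transporter gene Slc13a4 at 5.89 and 5.82, against 7.13 and 6.99. In these 3 genes the groups lay well apart, which follows in part from their choice by largest gap or smallest p. The hip-needled mice were nearly level in them. Klotho (Kl), which acts in phosphate balance, was at 5.73 and 4.82, against 6.26 and 6.51. The transcription factor gene Otx2 was at 6.61 and 6.91, against 7.38 and 7.13. The coagulation factor gene F5 alone of the 19 overlapped, at 5.06 and 4.75, against 4.93 and 5.18. The remaining members, among them Aqp1, Kcne2 and Trpv4, differed by -0.76 (Clic6) to -0.18 (Cldn1). Adjusted p over all 8 arrays ran from 0.437 to 0.852 on the list (limma).

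Ependymal genes of motile cilia, from the cells that line the ventricle, were lower in 11 of 11 tested, with a median of -0.26 (-0.09 in mouse 1, -0.36 in mouse 2), but only 3 did not overlap, a share close to the 22.6% of all genes, and 0 had an unadjusted p under 0.05 (limma). Foxj1, the master regulator of these cilia, stood at 6.10 and 6.34 in hip-needled mice, against 6.64 and 6.66 in controls. How far the choroid plexus differences go with the amount of ventricular lining in a block was not tested.

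Genes of meningeal and vascular fibroblasts, which make the collagen-rich coverings of the brain, were lower in hip-needled mice in 14 of 14 tested members of 20. The median was -0.81, with -0.88 in mouse 1 and -0.77 in mouse 2, the largest negative median of the 43 lists. Of the 14, 12 had an unadjusted p under 0.05 and 13 did not overlap, beside the 2.44% and 22.6% of all genes given above. Fibromodulin (Fmod), a proteoglycan that binds collagen, was at 5.87 and 5.81 in hip-needled mice, against 6.92 and 6.88 in controls (-1.06 ± 0.12, SE; adjusted p = 0.318, limma). Insulin-like growth factor 2 (Igf2), which meninges and choroid plexus both make, was at 7.44 and 7.17, against 8.47 and 8.40 (-1.13 ± 0.15). Fmod and Igf2 were named by rules that take genes whose groups lie apart. In both genes all hip-needled arrays lay about 1 unit below all control arrays, and both passed with the 6 arrays (Fmod -1.09 ± 0.09 and Igf2 -1.26 ± 0.10, SE, each with adjusted p = 0.0193, limma).

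The solute carriers of the meninges were lower as well. Slc6a13, a GABA and taurine transporter, was at 6.06 and 6.49 in hip-needled mice, against 7.50 and 7.35 in controls, and the proline transporter gene Slc6a20a at 7.02 and 7.33, against 8.43 and 8.15. The organic anion transporter gene Slc22a6 was at 5.82 and 5.68, against 6.50 and 6.50, and passed with the 6 arrays (-0.82 ± 0.08, SE, adjusted p = 0.0398, limma). None of these 3 overlapped between groups, which the rule that named them required. Decorin (Dcn) was at 7.42 and 7.65, against 8.48 and 8.23, and the retinoic acid synthesis gene Aldh1a2 at 5.58 and 6.23, against 7.31 and 6.86. The collagen genes differed less, Col3a1 by -0.58, Col1a2 by -0.51 and Col1a1 by -0.36. Biglycan (Bgn) overlapped, at 6.94 and 6.66, against 7.26 and 6.92.

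Outside the lists, the naming rule picked further lower genes. Islr, which is expressed in connective tissue, was at 5.90 and 6.08 in hip-needled mice, against 7.30 and 7.07 in controls. Slc6a12, the betaine and GABA transporter, was at 5.61 and 5.95, against 6.84 and 6.89, and the retinol carrier gene Rbp4 at 5.38 and 5.44, against 6.22 and 6.20. Their adjusted p over 8 arrays were 0.318, 0.444 and 0.484 (limma). The rule takes only genes without overlap here, so the groups lay apart in these 3 by selection. By the same rule it picked the epithelial membrane protein genes Emp2 (-0.68) and Emp3 (-0.96) and Itih2 (-0.86), whose product stabilises hyaluronan matrix. With the 6 arrays the differences of these 6 genes were -1.11 (Islr), -0.92 (Slc6a12), -0.76 (Rbp4), -0.59 (Emp2), -0.79 (Emp3) and -0.70 (Itih2).

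**Figure D2:**
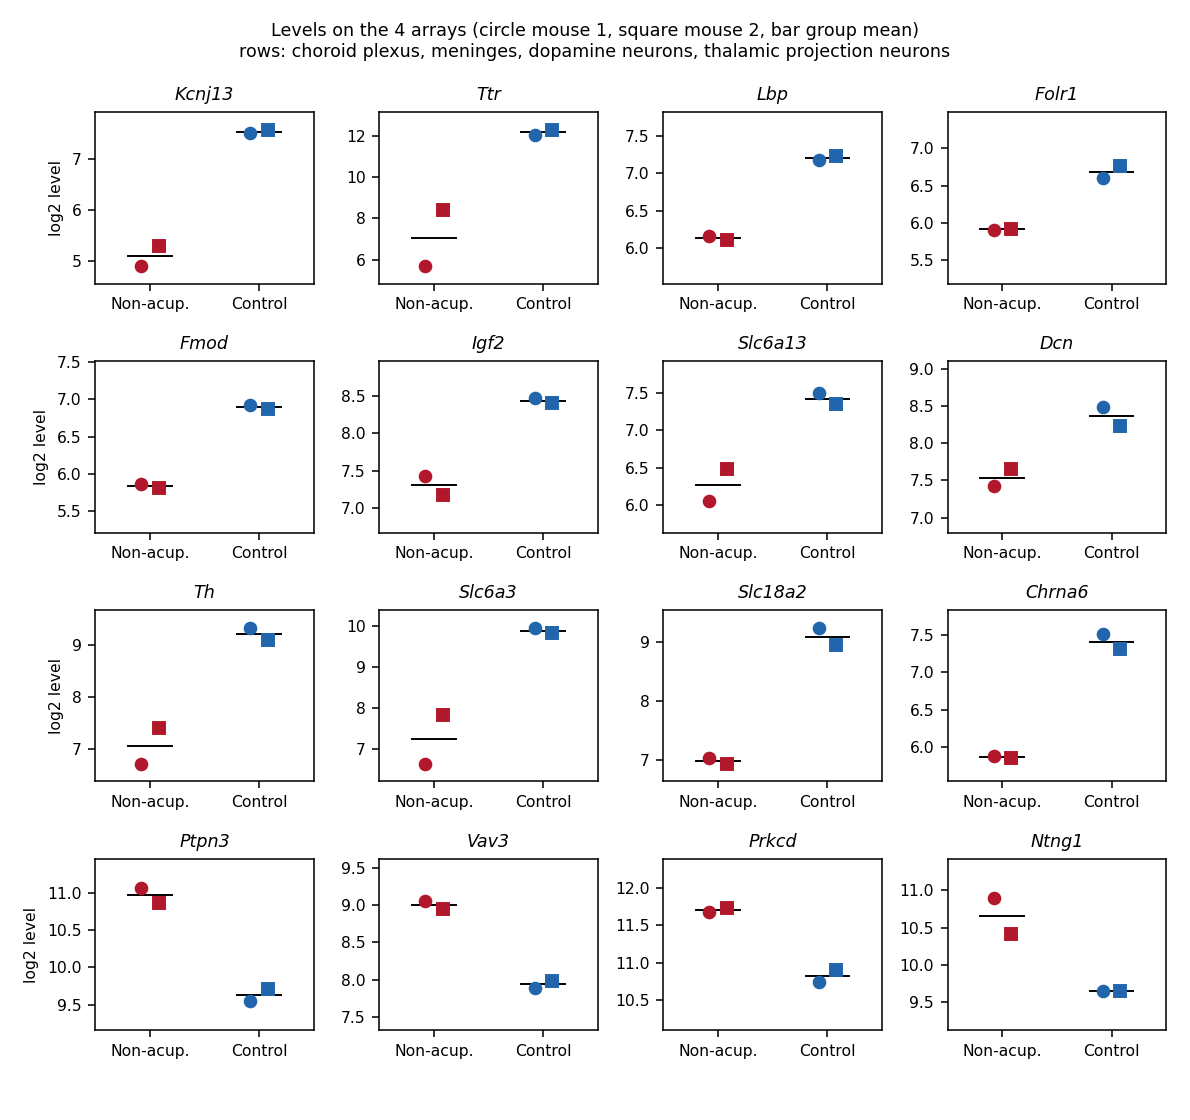
Log2 levels of 16 genes on the 2 hip-needled (Non-acup., red, left) and 2 control arrays (blue, right), with circles for mouse 1, squares for mouse 2 and a bar for the mean; each panel has its own axis. The panels were chosen among genes whose groups lie apart, and overlapping members of the same lists, such as F5 and Bgn, are not shown. That the groups do not overlap in any of the 16 panels follows from this choice. The hip-needled mice lie farthest from each other in Ttr (5.72 and 8.39) and Slc6a3 (6.64 and 7.83).

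Genes of dopaminergic neurons, the cells that MPTP destroys, were lower in hip-needled mice in 14 of 14 tested members of 18. The median difference was -0.70, with -0.69 in mouse 1 and -0.81 in mouse 2, so the shift was as large without mouse 1. Of the 14, 7 had an unadjusted p under 0.05, beside 2.44% of all genes as lower, and 12 did not overlap, beside 22.6%. How much midbrain, where the cell bodies of these neurons lie, the blocks include was not measured independently of these genes.

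Th, whose enzyme tyrosine hydroxylase sets the pace of dopamine synthesis, stood at 6.72 and 7.40 in hip-needled mice, against 9.34 and 9.10 in controls. Both hip-needled mice were well below both controls, with a 4.46-fold lower mean, and the difference was -2.16 ± 0.76 (SE; adjusted p = 0.705 by limma). With the 6 arrays it was -1.82 ± 0.15 (SE, adjusted p = 0.0193, limma). The large standard error over 8 arrays includes the spread of the MPTP mice, which stood at 6.15 and 8.75. The 250 bases before the start of Th, at chr7:142899996-142900245 on the minus strand (RefSeq, GRCm38.p6), are shown for the capitals, which mark CTTTGA and TGACGTCA where they overlap, 48 and 45 bases before the start:
Th: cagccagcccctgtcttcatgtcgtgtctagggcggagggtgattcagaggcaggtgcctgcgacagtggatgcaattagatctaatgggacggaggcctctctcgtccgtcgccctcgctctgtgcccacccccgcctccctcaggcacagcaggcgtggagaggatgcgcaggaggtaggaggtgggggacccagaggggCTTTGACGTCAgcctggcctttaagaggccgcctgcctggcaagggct
Among the 12 tested dopaminergic genes with a promoter in the table, Th alone holds TGACGTCA, and 4 hold CTTTGA (Aldh1a1, Drd2, Slc18a2 and Th). The match is a description of the letters, not of a factor bound there.

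The dopamine transporter gene Slc6a3 was at 6.64 and 7.83 in hip-needled mice, against 9.96 and 9.83 in controls, a 6.30-fold lower mean (-2.66 ± 0.95, SE; adjusted p = 0.705, limma), and passed with the 6 arrays (-2.06 ± 0.10, adjusted p = 0.00518, limma). The vesicular monoamine transporter gene Slc18a2 was at 7.03 and 6.94, against 9.24 and 8.95 (-2.11 ± 0.58, SE). In Slc18a2 the hip-needled mice were nearly level, while in Th and Slc6a3 mouse 1 was the lower. The nicotinic receptor subunit gene Chrna6, which dopaminergic terminals use, was at 5.87 and 5.86, against 7.52 and 7.31, and passed with the 6 arrays (-1.55 ± 0.12, adjusted p = 0.0173, limma). Dopa decarboxylase (Ddc) was at 7.14 and 7.79, against 8.91 and 8.64, and the transporter gene Slc10a4 at 5.42 and 6.39, against 7.19 and 7.32. Foxa2, a transcription factor of midbrain floor plate cells, was at 5.77 and 6.10, against 6.94 and 6.67. Thus 7 members, which include the enzymes and transporters of dopamine, differed from the controls by -2.66 to -0.87.

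The remaining 7 members lay closer to the controls. Pitx3 differed by -0.43, Nr4a2 by -0.42 and Lmx1b by -0.36, all transcription factors of these neurons. The receptor tyrosine kinase gene Ret differed by -0.19. Aldh1a1, at 11.31 and 11.03 in hip-needled mice against 11.40 and 11.26 in controls, and the synuclein gene Sncg, at 9.26 and 7.89 against 8.91 and 8.85, overlapped, and cells outside the dopaminergic system express both. Drd2 was at 8.21 and 7.75, against 8.58 and 8.43. Maob itself was at 10.05 and 9.25, against 9.14 and 9.08, a difference of 0.54 ± 0.52 (SE) that rests on mouse 1 (0.14 in mouse 2 alone).

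Genes of serotonin and noradrenaline neurons were lower in 3 of 4 tested (median -0.41, -0.45 in mouse 1 and -0.36 in mouse 2). Gata3, a transcription factor of serotonin and midbrain GABA neurons, was at 6.07 and 5.72 in hip-needled mice, against 7.18 and 7.01 in controls, and the serotonin receptor gene Htr1a at 6.13 and 6.23, against 6.73 and 6.65. Only 4 of the 11 genes of the serotonin and noradrenaline list passed the brightness filter. Below it lay Tph2, the enzyme that starts serotonin synthesis in neurons, at 4.16 and 4.25 in hip-needled mice, against 6.76 and 6.65 in controls. Without a filter its difference of -2.50 ± 0.18 (SE) passed as the one such probe set, with an adjusted p of 0.0465 (limma, 8 arrays). The serotonin transporter gene Slc6a4 was at 5.06 and 5.02, against 6.35 and 6.35 (-1.31 ± 0.20, adjusted p = 0.401 without the filter, limma). In both genes the hip-needled mice were level with each other, and the 4 arrays of acupoint and MPTP mice were also below the controls, at 4.27 to 4.73 in Tph2 and 4.84 to 5.43 in Slc6a4. Serotonin cell bodies lie in the raphe nuclei of the brainstem, and their axons reach the thalamus. Of the red nucleus, subthalamus and other ventral neighbours, 7 of 9 genes were lower, 5 of them without overlap, beside 22.6% of all genes. The 2 higher genes also lay apart, a share close to the 25.7% of all genes. They were Foxp1, at 8.60 and 7.86 in hip-needled mice, against 7.82 and 7.78 in controls, and Cbln1, at 8.62 and 8.90, against 8.57 and 8.58. The median of the 9 was -0.19, -0.24 in mouse 1 and -0.09 in mouse 2, and it was 0.18 over the 3 genes left by the 60% filter. The urocortin gene Ucn, of the Edinger-Westphal nucleus in the midbrain, was at 6.21 and 6.00, against 6.61 and 6.69, and Barhl2 at 6.07 and 5.68, against 6.35 and 6.27. In Gata3, Htr1a, Ucn and Barhl2 the groups did not overlap.

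Hypothalamic genes were lower in 16 of 18 tested members of 20 (median -0.47, -0.59 in mouse 1 and -0.42 in mouse 2). At an unadjusted p under 0.05, 6 were lower and 1 was higher, beside 2.44% and 2.72% of all genes. Cartpt, the precursor of a peptide of feeding and stress neurons, was at 6.79 and 7.62 in hip-needled mice, against 8.97 and 8.93 in controls, and passed with the 6 arrays (-1.32 ± 0.14, SE, adjusted p = 0.0398, limma). Histidine decarboxylase (Hdc), which makes histamine, was at 6.07 and 5.59, against 6.93 and 6.98. The signalling adapter gene Irs4 was at 6.42 and 6.34, against 7.18 and 7.04. These 3 genes, named by largest gap or smallest p, did not overlap between groups. Vasopressin (Avp) was at 6.90 and 7.26, against 8.07 and 7.80, and oxytocin (Oxt) at 8.19 and 8.65, against 9.07 and 9.05. The gene of melanin-concentrating hormone, Pmch, split the hip-needled mice, at 8.36 and 10.62, against 10.14 and 10.18, and so did Hcrt, the orexin gene, at 7.31 and 9.95, against 8.94 and 9.16. In these 2 lateral hypothalamic peptides mouse 1 was below and mouse 2 above both controls. Thyrotropin-releasing hormone (Trh) was higher, at 8.36 and 7.82, against 7.53 and 7.60.

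In the habenula list 10 of 13 genes were lower (median -0.22, 6 without overlap, beside 22.6% of all genes). The median was -0.24 in mouse 1, -0.38 in mouse 2 and with the 6 arrays, and -0.43 with a term for the 2 arrays that stood apart. Irx2 was at 7.07 and 6.94 in hip-needled mice, against 7.80 and 7.71 in controls, and passed with the 6 arrays (-0.81 ± 0.09, SE, adjusted p = 0.0442, limma). The nicotinic subunit genes Chrnb3 and Chrnb4 were at 5.99 and 5.55, against 6.55 and 6.51, and at 5.78 and 5.46, against 6.05 and 6.17. Gpr151, an orphan receptor confined in brain largely to the habenula, overlapped at 4.93 and 5.62, against 5.15 and 5.19, all at the dim end of the array.

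Genes of thalamic projection neurons, which relay sensory and motor signals to cortex, were higher in hip-needled mice. Of 20 tested members of 22, 19 were higher, with a median of 0.64 (0.80 in mouse 1 and 0.53 in mouse 2). Of the 20, 14 had an unadjusted p under 0.05, beside 2.72% of all genes as higher, and 17 did not overlap, beside 25.7%. These members, too, were chosen with earlier results of these data known, so the counts describe the list and test nothing. With the 6 arrays, where mouse 2 alone stands for the hip-needled group, 20 of 20 were higher, beside 7489 of all 13524 genes.

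Ptpn3, which encodes a cytoskeletal tyrosine phosphatase, led the list. It was measured by 12 tested probe sets, and in 12 of 12 both hip-needled arrays lay above both control arrays. Its brightest probe set by the mean of all arrays was at 11.06 and 10.87 in hip-needled mice, against 9.55 and 9.70 in controls (1.34 ± 0.15, SE; adjusted p = 0.318, limma). Over the 12 the difference ran from 1.00 to 1.71, and 10 of them passed with the 6 arrays. These probe sets share a gene and the same tissue samples, so their number is no count of independent results.

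**Figure D3:**
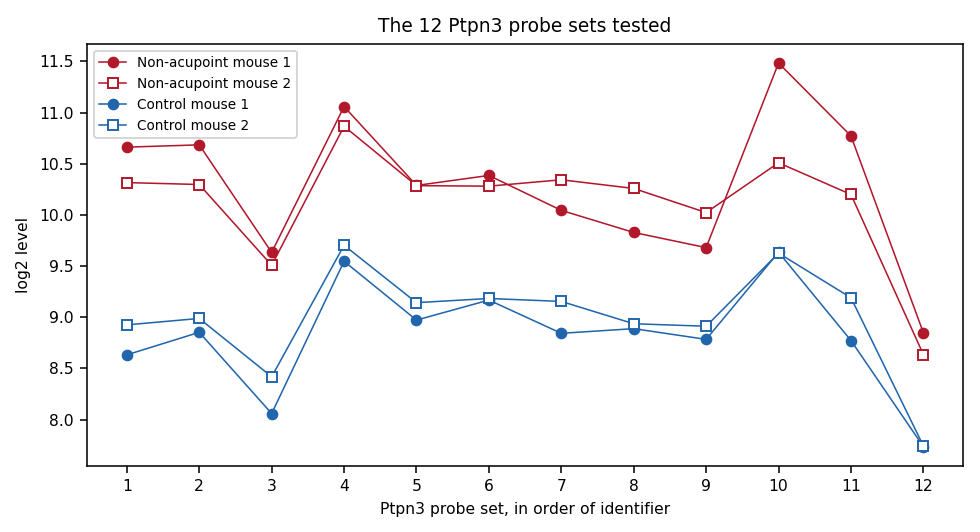
Log2 levels of the 12 Ptpn3 probe sets tested, in order of their identifiers, in the 2 hip-needled (red) and 2 control mice (blue), with filled circles for mouse 1 and open squares for mouse 2. In 12 of 12 both red points lie above both blue points, and the hip-needled mice swap order along the gene.

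Vav3, which encodes an intracellular signalling protein, was at 9.05 and 8.95 in hip-needled mice, against 7.89 and 7.98 in controls, and passed with the 6 arrays (1.02 ± 0.09, SE, adjusted p = 0.0249, limma). The kinase gene Prkcd was at 11.67 and 11.74, against 10.74 and 10.90, and passed there as well (0.91 ± 0.11, adjusted p = 0.0459, limma). In both genes the hip-needled mice were nearly level and lay well above both controls. Prkcd lies on chromosome 14, and the 250 bases before the upstream of its 2 starts in the table, chr14:30626209-30626458 on the minus strand (RefSeq, GRCm38.p6), hold a CTTTGA on the reverse strand, in capitals, 139 bases before the start:
Prkcd: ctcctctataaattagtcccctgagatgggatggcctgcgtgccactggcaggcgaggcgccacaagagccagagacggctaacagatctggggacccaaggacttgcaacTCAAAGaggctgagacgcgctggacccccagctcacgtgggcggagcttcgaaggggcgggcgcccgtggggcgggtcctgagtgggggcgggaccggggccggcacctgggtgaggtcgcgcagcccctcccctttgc
It is shown because Tcf7l2 and Lef1, members of the family that binds this core, are on the same list. Of the 15 list genes with a promoter in the table, 3 hold CTTTGA (Lef1, Prkcd and Zfhx3), against 13.8% of all promoters, so 12 of the 15 do not.

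Netrin G1 (Ntng1), an axonal adhesion molecule, was at 10.90 and 10.42 in hip-needled mice, against 9.65 and 9.65 in controls, and also passed with the 6 arrays (0.77 ± 0.08, SE, adjusted p = 0.0421, limma). The potassium channel gene Kcnc2 was at 11.03 and 10.70, against 9.96 and 10.07, and Kit ligand (Kitl) at 9.22 and 8.90, against 8.34 and 8.36. The nuclear receptor gene Rora was at 10.51 and 10.54, against 9.89 and 9.96. In these 4 genes the groups lay apart, and mouse 1 was the higher of the hip-needled pair in Ntng1, Kcnc2 and Kitl. Tcf7l2 was at 10.53 and 9.81, against 9.39 and 9.47, and Lef1 at 9.29 and 8.61, against 8.07 and 8.15. Cacna1g, the T-type calcium channel of relay cell bursting, was at 8.78 and 8.87, against 8.31 and 8.41. Calb2, Slc17a6 and Pdp1 overlapped, with differences of -0.15, 0.13 and 0.17. Adjusted p on the list ran from 0.318 to 0.810 (limma, 8 arrays).

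The naming rule picked further higher genes. Vipr2, a receptor of vasoactive intestinal peptide, was at 8.29 and 8.05 in hip-needled mice, against 7.19 and 7.11 in controls, and Ramp3, which helps calcitonin-family receptors reach the membrane, at 9.62 and 9.34, against 8.64 and 8.69. Ptpn4, the closest relative of Ptpn3, was at 10.96 and 10.69, against 9.89 and 9.93. The kinase gene Prkch was at 9.11 and 8.65, against 7.54 and 7.68. That none of these 4 overlapped follows from the rule, which takes only genes without overlap here. Synj2, an inositol phosphatase of vesicle recycling, was at 8.66 and 8.58, against 7.80 and 7.78. Slc17a7, a vesicular glutamate transporter of cortex and thalamus, was at 9.76 and 9.79, against 8.94 and 9.03. The transcription factor gene Prox1, like Slc17a7 on the list of cortical and hippocampal neurons, was at 9.67 and 8.80, against 7.86 and 7.86, so its difference of 1.38 ± 0.43 (SE) is mostly that of mouse 1. Abhd12b was at 8.63 and 7.99, against 6.93 and 6.68. Plekhg1 (1.30), Mctp2 (1.27), Slc7a8 (1.19), Osbpl3 (1.04) and Ogfrl1 (1.01) were also higher, without overlap by the same rule. For Abhd12b and these genes, 6 in all, adjusted p ran from 0.487 to 0.705 (limma).

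Receptors and channels of thalamic excitability were higher in part. Of 21 glutamate receptor genes tested, 19 were higher (median 0.31, 0.47 in mouse 1 and 0.14 in mouse 2), 16 without overlap, beside 25.7% of all genes as higher, and 5 at an unadjusted p under 0.05, beside 2.72%. With a term for the 2 arrays that stood apart the median was 0.07 and 13 of 21 were higher. Grm4, a presynaptic metabotropic receptor, was at 8.71 and 8.44 in hip-needled mice, against 7.87 and 7.82 in controls. The NMDA receptor subunit gene Grin2b was at 10.11 and 9.90, against 9.23 and 9.36, and Grin2a at 9.96 and 9.28, against 8.57 and 8.57. Grin2a passed with the 6 arrays (0.71 ± 0.08, SE, adjusted p = 0.0461, limma). Among GABA receptor genes, Gabra4, a subunit of extrasynaptic receptors on relay neurons, was at 10.29 and 10.64, against 9.84 and 9.83, and passed there too (0.81 ± 0.08, adjusted p = 0.0398, limma). Gabbr2 was at 11.13 and 10.79, against 10.33 and 10.31, while Gabra5 was lower, at 7.93 and 8.23, against 8.73 and 8.64. Potassium channel genes were higher in 17 of 23 (median 0.23, 0.38 in mouse 1 and 0.13 in mouse 2), with Kcnq3, an M-current subunit, at 9.76 and 9.83, against 9.22 and 9.30. Of the sodium channel genes, Scn1a was at 10.40 and 10.43, against 10.04 and 9.96.

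Clock genes, which time the daily cycle of cells, were higher in 14 of 17 (median 0.31, 12 without overlap, beside 25.7% of all genes), more so in mouse 1 (0.43) than in mouse 2 (0.15). Rorb, which thalamic neurons also express, was at 9.34 and 9.05 in hip-needled mice, against 8.41 and 8.40 in controls, and Hlf at 10.66 and 9.97, against 9.44 and 9.47. Dbp, a target of the clock with a strong daily rhythm, overlapped at 8.76 and 9.22, against 9.24 and 9.03. The labels give no time of day for the dissections.

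Chaperones of the endoplasmic reticulum and heat shock genes were lower in 19 of 22 (median -0.43), 13 without overlap, beside 22.6% of all genes, and 6 at an unadjusted p under 0.05, beside 2.44%. Mouse 1 (-0.63) lay farther from the controls than mouse 2 (-0.18). Hspa1a, the stress-inducible HSP70, was at 6.38 and 7.02 in hip-needled mice, against 7.79 and 7.60 in controls, and Sdf2l1 at 6.71 and 7.47, against 8.28 and 8.11. Xbp1, a transcription factor of the unfolded protein response, was at 8.96 and 9.23, against 9.75 and 9.71, and Creld2, one of its response genes, at 7.49 and 7.55, against 8.20 and 8.06. In these 4 genes both hip-needled mice were below both controls. The constitutive chaperones Hspa8 and Hsp90aa1 overlapped, with differences of -0.03 and 0.01.

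Astrocyte genes had a median of -0.03, with 8 higher and 11 lower. Of these, 5 lay apart as higher and 7 as lower, beside 25.7% and 22.6% of all genes. Aldh1l1 was among the higher ones, at 8.83 and 9.04 in hip-needled mice, against 8.70 and 8.60 in controls. Gfap, the intermediate filament that reactive astrocytes raise, was at 7.80 and 8.84 in hip-needled mice, against 9.25 and 9.05 in controls, and Vim at 8.43 and 9.03, against 9.44 and 9.30, both lower without overlap. Microglial genes had a median of -0.06, with 7 of 17 higher, and Aif1 was at 5.54 and 6.04, against 6.12 and 5.80. Oligodendrocyte genes differed between the hip-needled mice, with a median of -0.49 in mouse 1 and 0.10 in mouse 2. Mbp, a main protein of myelin, was at 11.65 and 11.72, against 11.72 and 11.71. Cytokine and interferon genes had 10 of 24 members bright enough to test, of which 8 were lower (median -0.16, -0.18 in mouse 1 and -0.22 in mouse 2). Endothelial and pericyte genes were higher in 10 of 16 (median 0.09). Without overlap 7 were higher and 3 lower, beside 25.7% and 22.6% of all genes. Among them Abcb1a, the drug pump of the blood-brain barrier, was at 9.21 and 8.95, against 8.40 and 8.30, while vitronectin (Vtn), from pericytes, was lower, at 9.96 and 9.83, against 10.51 and 10.34. Immediate early genes, which neuronal activity induces, were lower in 14 of 20 (median -0.06), and the hip-needled mice lay on either side of the controls (-0.17 and 0.07). Fos, a marker of recent neuronal activity, was at 6.56 and 7.21, against 7.13 and 6.94, and the phosphatase gene Dusp1 at 9.14 and 9.31, against 8.65 and 8.57. Egr4 was lower, at 6.04 and 6.08, against 6.51 and 6.60, and so was Fosl2, at 6.29 and 6.65, against 6.96 and 6.99. Glucocorticoid response genes had a median of -0.13 (-0.09 in mouse 1 and 0.07 in mouse 2), with 7 of 15 higher. In this list 4 lay apart as higher and 3 as lower, beside 25.7% and 22.6% of all genes. Fkbp5, which glucocorticoids induce, was at 7.82 and 8.30, against 7.82 and 7.71. The glucocorticoid receptor gene Nr3c1 was at 9.07 and 9.10, against 8.54 and 8.63, while Nfkbia was lower, at 7.51 and 8.16, against 8.32 and 8.29.

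Genes of cortical and hippocampal neurons had a median of -0.36 (-0.15 in mouse 1 and -0.23 in mouse 2), with 7 of 17 higher. Those of striatal medium spiny neurons had -0.12 (-0.11 and -0.17), with 4 of 16 higher, and -0.48 with a term for the 2 arrays that stood apart. Genes of the reticular nucleus and zona incerta, which inhibit the thalamus, had a median of 0.06 with 8 of 12 higher (-0.06 with that term, 5 of 12 higher), and general neuronal genes -0.03 with 9 of 20 higher. Long adhesion and axon guidance genes were higher in 18 of 25 (median 0.32) and chromatin and splicing regulators in 17 of 24 (0.21), again more in mouse 1 (0.55 and 0.39) than in mouse 2 (0.12 and 0.09).

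A further set of lists was low in hip-needled mouse 1 and near the controls in mouse 2. Subunit genes of mitochondrial complexes II to V had a median of -0.92 in mouse 1 and 0.06 in mouse 2, and those of complex I -0.45 and 0.03. Proteasome genes were at -0.70 and 0.05, cytosolic ribosome genes at -0.53 and -0.03, and histone genes at -0.63 in mouse 1 and level with the controls in mouse 2. Uqcrq, a subunit of complex III, was at 7.70 in mouse 1 and 9.31 in mouse 2, against 9.42 and 9.35 in controls. The proteasome gene Psmb5 was at 7.90 and 9.21, against 9.25 and 9.28, and the neurofilament gene Nefl at 8.96 and 11.30, against 11.28 and 11.25. In each of these 3 genes mouse 1 was over 1 unit below the other 3 arrays, which lay close together. On MPTP mouse 1, the other array that stood apart, the medians were -0.98 for complexes II to V, -0.69 for the proteasome and -0.68 for the ribosome. The mean over both hip-needled mice in these lists is thus the value of neither mouse, and the part that RNA quality plays was not tested.

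**Figure D4:**
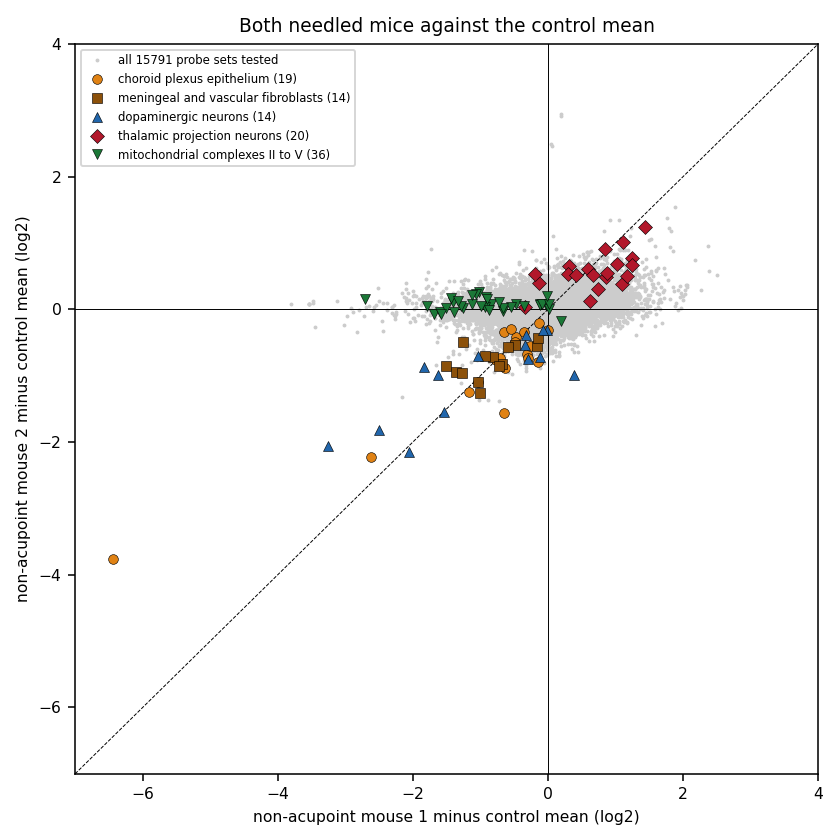
Difference of hip-needled mouse 1 (horizontal) and mouse 2 (vertical) from the control mean on the log2 scale, for the 15791 probe sets tested (grey) and for 5 gene lists (coloured, 1 probe set per gene); the broken line marks equal differences. Thalamic genes lie toward the upper right and choroid plexus, meningeal and dopaminergic genes toward the lower left, while genes of mitochondrial complexes II to V spread along the horizontal axis with mouse 2 near 0.

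Set beside the other MPTP groups, with which it shares the 2 control arrays, the hip-needled group lay on the same side of the controls in thalamic, dopaminergic and meningeal genes and on the other side in choroid plexus genes. For thalamic projection neurons the median difference from controls was 0.64 in hip-needled, 0.81 in acupoint and 0.58 in MPTP mice. For dopaminergic neurons it was -0.70, -0.97 and -0.42, and for meningeal fibroblasts -0.81, -0.37 and -0.56. For the choroid plexus it was -0.50 in hip-needled, 1.32 in acupoint and 1.66 in MPTP mice. The ependymal list was at -0.26, 0.51 and 0.28 in the same order of groups, with 0.26 in MPTP mouse 1 and 0.04 in MPTP mouse 2. The habenular list was at -0.22 in hip-needled and 0.59 in acupoint mice. Its MPTP median of 0.08 covers mice on either side of the controls, with 0.35 in mouse 1, which stood apart, and -0.23 in mouse 2. Kcnj13 was at 4.91 and 5.30 in hip-needled mice, 9.40 and 10.02 in acupoint mice, 11.07 and 10.13 in MPTP mice, and 7.50 and 7.56 in controls. The choroid plexus thus lay below the controls in the hip-needled group and above them in both others, so the hip-needled difference from controls is smaller than its difference from MPTP mice.

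The direct contrast of hip-needled with MPTP mice tests that difference without the controls' levels. In it 7 probe sets (0.0443%) passed an adjusted p of 0.05 by limma over all 8 arrays, all lower in hip-needled mice, and 6 of them are choroid plexus members (Kcnj13, Folr1, Lbp, Sostdc1, Car12 and Cldn1) and 1, Igf2, is on the meningeal list. The contrast with acupoint mice gave 0 (0%), with a smallest adjusted p of 0.0522, for Kcnj13 (-4.60) and Folr1 (-2.30). Th and Slc6a3 had no adjusted p under 0.05 in either contrast, and this does not show that the groups are alike.

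**Figure D5:**
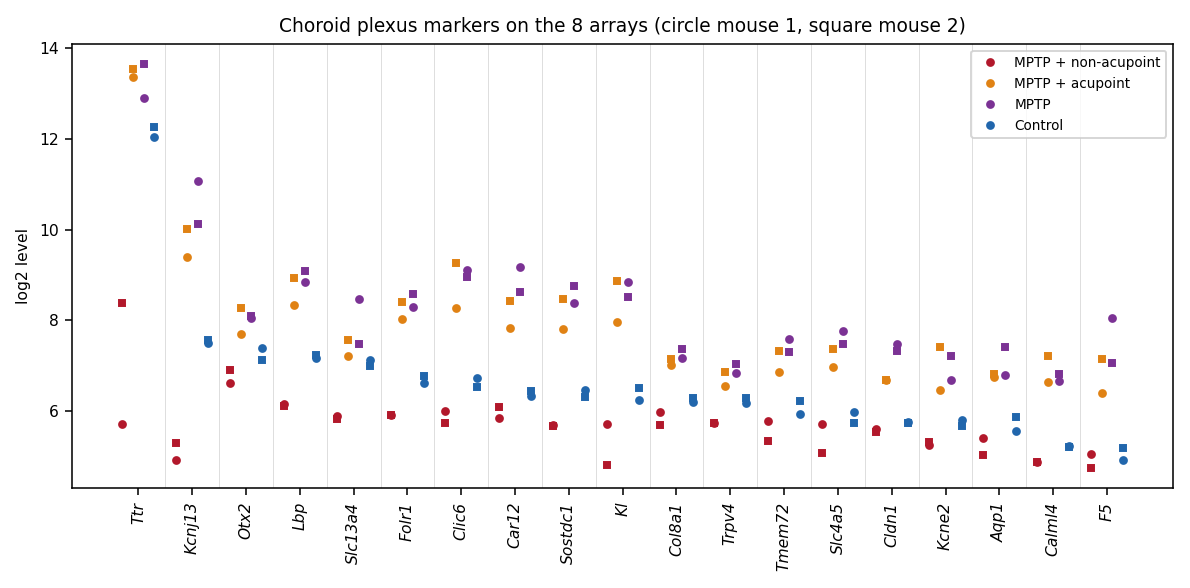
Log2 levels of the 19 tested choroid plexus markers on the 8 arrays, in order of their control mean, with hip-needled (red), acupoint (orange), MPTP (purple) and control arrays (blue) from left to right within each gene; circles are mouse 1 and squares mouse 2. The red points lie lowest in 18 of 19 genes, and the orange and purple points lie above the blue ones.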

How the data were processed

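Thalamic total RNA of each mouse was hybridised to 1 Affymetrix array, with 2 mice per group, so the number of mice limits the precision. The values deposited by the authors are log2 levels per probe set, made with RMA in Affymetrix Expression Console per the submitters' processing notes, whose versions the sources used here do not give. They were not normalized again. GEO's platform annotation gave 1 symbol for 21789 probe sets, several for 1621 and none for 12147. Probe sets with a symbol and a mean outside the lowest 40% (under 5.63) were tested.

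Groups were taken from the sample titles. A mean per group was fitted over all 8 arrays with limma 3.58.1 in R 4.3.3 (4 residual degrees of freedom), followed by eBayes and Benjamini-Hochberg adjustment over the 15791 probe sets, in a procedure tested on simulated data. With 2 against 2 arrays an exact permutation test cannot go below 0.333, so none is given. Errors are standard errors of the fit, and p-values measure the spread between these mice.

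The 43 gene lists hold 859 symbols, of which 710 were tested, and are described by 1 probe set per gene, the brightest over 8 arrays. Genes were named by largest gap between the groups or by smallest p among genes without overlap (15 per direction). Genes named in this way are therefore free of overlap by selection. Others were named as up to 4 members per list of smallest p, and from a fixed list. Members and lists were chosen with earlier results of these data known. Genes outside that rule, among them the members without overlap or of smaller difference, were chosen after their values were seen. Promoter bases are RefSeq's. Alternatives changed the normalization, filter, moderation, arrays and covariates.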

Additional observations from a re-analysis of the deposited data

Results flagged for a closer look

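The differences between hip-needled and MPTP mice of 7 genes, each with an adjusted p under 0.05 by limma over 8 arrays, drew attention because they test a difference between 2 groups that were both set against the same controls. Kcnj13 differed by -5.49 ± 0.35 on the log2 scale (SE). Car12, a carbonic anhydrase, was at 5.85 and 6.09 in hip-needled mice, against 9.17 and 8.64 in MPTP mice (-2.93 ± 0.26). Sostdc1, a secreted inhibitor of BMP and Wnt signals, was at 5.69 and 5.66, against 8.38 and 8.76 (-2.90 ± 0.25). Lbp differed by -2.83 ± 0.21 and Folr1 by -2.52 ± 0.18. Cldn1, of tight junctions, was at 5.61 and 5.53, against 7.48 and 7.33 (-1.83 ± 0.13), and Igf2 differed by -1.69 ± 0.15. All 7 were lower in both hip-needled mice than in both MPTP mice.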

How the results depend on the processing

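Limits come first from numbers: each group is 2 mice, an array of one of them stood apart, and choroid plexus genes lay near the dim end of the array in hip-needled mice. Between hip-needled and control mice the count of probe sets past an adjusted p of 0.05 was 0 in all fits over 8 or 4 arrays that kept the brightness filter, except for 16 with a term for the 2 arrays that stood apart. It was 1 without the filter (Tph2) and 52 with the 6 arrays. Leaving out 1 mouse at a time gave 0 to 1, the 1 being Ttr without hip-needled mouse 2. The count at an unadjusted p under 0.05 (770) was 1428 without the filter, 474 with the lowest 60% left out, 3331 with the 6 arrays and 1873 with the term. Leaving out 1 mouse gave 215 to 2421: 215 and 231 without control mouse 1 and 2, 448 without either acupoint mouse, 1914 without either MPTP mouse, 509 without hip-needled mouse 1 and 2421 without hip-needled mouse 2. A group left with 1 mouse adds nothing to the shared estimate of the spread, so either mouse of the MPTP or acupoint pair gave the same count. Other reasons for these counts were not tested. The share of higher probe sets at an unadjusted p, 54.9%, was 69.6% with arrays centred on their medians, 35.9% without the filter, 74.3% with the lowest 60% left out and 66.7% with array weights. The replicate block, with mouse numbers as a block, gave 0 past the adjusted p and 990 at an unadjusted p. The labels link same-numbered mice by nothing but the number. Deviations of the mice numbered 1 from their group means correlated between -0.282 and 0.822 over 6 pairs of groups. The 0.822 is that of MPTP mouse 1 with hip-needled mouse 1, the 2 arrays that stood apart, and what they share was not tested.

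Against MPTP mice the 6 arrays gave 23 probe sets, and against acupoint mice 21, or 2 without the filter and all 8 arrays.

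The choroid plexus median was -0.92 with the lowest 60% left out, -0.73 with the 6 arrays and -0.63 with the term. The dopaminergic median was -0.53, -0.81 and -0.84 under the same 3, and the hypothalamic one -0.31 with the term. Leaving out 1 of the 4 mice gave -0.73 to -0.55 for choroid plexus, -0.81 to -0.60 for dopaminergic and -0.91 to -0.77 for meningeal genes. The thalamic median ran from 0.53 to 0.80 and the hypothalamic one from -0.59 to -0.42.

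Among smaller lists, medians that changed sign were those of the reticular nucleus (-0.06) and astrocytes (0.01) with the term, microglia (0.07) with the lowest 60% left out, and general neuronal (0.05), oligodendrocyte (0.10) and immediate early genes (0.07) with the 6 arrays. With the 6 arrays so did those of the glucocorticoid response, antioxidants, complex I, complexes II to V, the proteasome, glycolysis, apoptosis and Parkinson disease genes (0.026 to 0.071), with the term that of the ribosome (0.0037), with the lowest 60% left out that of the ventral neighbours (0.18), and without hip-needled mouse 2 that of oligodendrocyte precursors (-0.0027). Differences of single genes changed sign as well, among them those of Nefl (-1.14 over 8 arrays), Psmb5 (-0.72), Pmch (-0.67) and Maob (0.54). With the 6 arrays they became positive for Aif1 (0.074), Fos (0.18), Hcrt (0.91), Mbp (0.0068), Pmch (0.46), Calb2 (0.039), Dbp (0.079), Hspa8 (0.046) and Nefl (0.031). With the term, values of opposite sign were Fos 0.0014, Foxp1 -0.090, Hcrt 0.90, Maob -0.065, Mbp 0.0027, Pmch 0.53, Psmb5 0.011, Calb2 0.0060, Dbp 0.12 and Hspa8 0.032. Under quantile normalization Hsp90aa1 was at -0.041. Leaving out 1 mouse gave ranges of -0.42 to 0.074 for Aif1, -0.48 to 0.18 for Fos, -0.24 to 0.45 for Gpr151, -1.74 to 0.91 for Hcrt, -0.066 to 0.0068 for Mbp, -1.80 to 0.46 for Pmch, -0.34 to 0.039 for Calb2, -0.38 to 0.079 for Dbp, -0.31 to 0.0037 for F5, -0.11 to 0.046 for Hspa8, -2.30 to 0.031 for Nefl, -0.20 to 0.53 for Pdp1, -0.13 to 0.40 for Slc17a6 and -0.99 to 0.38 for Sncg.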

Other observations

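Probe sets annotated to several hemoglobin genes, for which no single gene is named, were bright in hip-needled mouse 2 alone. Of the 4 that passed with the 6 arrays, mouse 2 stood between 9.26 and 10.31 and mouse 1 between 6.85 and 7.56, against 6.72 to 7.54 in controls. Their adjusted p was 0.0054 with the 6 arrays and 0.705 with all 8 (limma).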
